A study of Mus musculus with 9 samples.

Results

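Collagens are the proteins of which most of the fibres, sheets and anchoring filaments between cells are made. The genes described here are the 42 collagen chain genes measured in mouse gastrocnemius, a calf muscle, out of 56791 genes in the count table. They were chosen by symbol (Col, a type number, the letter a and a chain number) and by a minimum of 30 counts summed over the 9 libraries. Of 44 symbols of that form, Col6a4 with 28 counts lay just under that limit and Col10a1 with 9 counts well under it, and Col25a1 with 122 counts and Col9a3 with 136 counts were the nearest genes above it. The 42 genes comprise 11 fibrillar collagens, 6 basement membrane collagens of type IV and 25 collagens of other types. All 42 passed the filter on low counts and are among the 17534 genes tested.

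The study measured RNA by sequencing in female mice, with 3 libraries in each of 3 groups. The young vehicle group received saline (3M in its titles, read as months of age). The aged vehicle group received saline (23M in its titles). The aged GB group received ginkgolide B (GB), a terpene lactone of the ginkgo tree, at 12 mg per kg, and its titles give no age. All 3 groups were treated each day by oral gavage for 2 months. The labels used here give no strain and do not tell whether replicate libraries stem from different animals. The p-values below therefore measure the spread between libraries, which may be technical.

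As background, each collagen chain carries long stretches of the repeat Gly-X-Y, in which glycine sits at the first place of every unit, and chains wind into a rope-like helix inside the endoplasmic reticulum before they are secreted. Fibrillar collagens are then trimmed and pack into cross-linked fibrils. In muscle these run through the sheaths around fibres and fibre bundles and continue into the tendon. Type IV chains instead form a flexible sheet in the basement membrane around each muscle fibre and each capillary, and type VI chains form beaded filaments that lie next to that sheet. Fibroblasts and fibro-adipogenic progenitors make most of the fibrillar collagen of muscle.

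The classes differ in the sequence itself. In the GENCODE mouse release 21 coding sequences (M21, build GRCm38), the longest unbroken run of Gly-X-Y units had a median of 338 units in the 11 fibrillar genes (216 to 344), 43.5 in the 6 type IV genes (39 to 66) and 45 in the 25 other genes (23 to 113). Coding exons of exactly 54 bases had a median of 29 in fibrillar genes (21 to 33), 2 in type IV genes (1 to 3) and 3 in the others (0 to 28). Col22a1, of the other types, was the gene with 28 such exons. An exon each of Col1a1, Col3a1 and Col4a1, chains with high levels in this muscle, is shown to make the difference visible, 5′ to 3′ on the coding strand, with the in-frame glycine codons in capitals. The Col1a1 and Col3a1 exons were picked as 54-base exons inside the longest run. The Col4a1 exon was picked because it holds residues outside the runs of 10 or more units. The contrast between these exons thus follows from their choice.
Col1a1 exon 8 (chr11:94939904-94939957, plus strand): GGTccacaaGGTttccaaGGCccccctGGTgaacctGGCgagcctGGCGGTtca
Col3a1 exon 6 (chr1:45325360-45325413, plus strand): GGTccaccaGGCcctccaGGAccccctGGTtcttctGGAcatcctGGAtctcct
Col4a1 exon 9 (chr8:11244486-11244569, minus strand): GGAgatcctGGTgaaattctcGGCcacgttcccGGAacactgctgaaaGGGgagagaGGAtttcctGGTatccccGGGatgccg
In the Col1a1 exon 7 of 18 codons encode glycine, and in the Col3a1 exon 6 of 18 do. In both exons every 9-base unit starts with a glycine codon, and the extra glycine codon of Col1a1 follows directly on another. In the Col4a1 exon 8 of 28 codons encode glycine and the spacing between them is uneven, so the repeat is interrupted within this 84-base exon.

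Several collagen genes sit side by side. In the RefSeq annotation 7 pairs of members are neighbours with no protein-coding gene between them: Col3a1 and Col5a2, Col4a1 and Col4a2, Col4a3 and Col4a4, Col4a5 and Col4a6, Col6a1 and Col6a2, Col6a5 and Col6a6, and Col9a1 and Col19a1. Col4a1 and Col4a2 lie on opposite strands with annotated start sites 21 bases apart, and their annotated transcripts overlap over their first bases. A promoter window was found in RefSeq (GRCm38.p6) for 33 of the 42 members. The 250 bases before the annotated start of Col1a2 and Col3a1, both abundant fibrillar genes of the results below, are printed 5′ to 3′ with motif matches in capitals.
Col1a2 (chr6:4505368-4505617, plus strand): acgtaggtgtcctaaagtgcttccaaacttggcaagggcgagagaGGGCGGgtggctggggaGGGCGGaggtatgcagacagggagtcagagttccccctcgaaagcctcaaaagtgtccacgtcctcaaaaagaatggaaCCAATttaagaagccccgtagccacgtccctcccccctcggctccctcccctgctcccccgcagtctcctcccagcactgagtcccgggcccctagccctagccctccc
Col3a1 (chr1:45311288-45311537, plus strand): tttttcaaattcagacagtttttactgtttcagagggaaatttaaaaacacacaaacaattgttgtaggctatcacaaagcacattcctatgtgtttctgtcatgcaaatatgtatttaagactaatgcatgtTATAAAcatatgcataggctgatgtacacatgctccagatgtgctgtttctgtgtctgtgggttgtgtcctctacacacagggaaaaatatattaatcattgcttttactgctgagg
The window of Col1a2 holds CCAAT at 109 to 105 bases before the start and GGGCGG, the GC box, at 205 to 200 and 188 to 183 bases before it. The window of Col3a1 holds TATAAA at 117 to 112 bases before the start. Both strands were searched, and the matches are descriptions of these letters only. CCAAT occurred in 12 of the 36 windows of member genes and in 33.8% of 32851 windows of all genes, GGGCGG in 21 of 36 and 32.7%, and TATAAA in 4 of 36 and 12.4%.

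Library totals were 51543383 to 61680520 counts with vehicle (6 libraries) and 39478427 to 44294097 counts with GB (3 libraries). The GB libraries stood apart: 18678 to 19362 genes had a count in them, against 22616 to 24185 with vehicle, and mitochondrially encoded genes took 24.3 to 26.1% of their counts, against 8.6 to 15.3%. No batch is named in the labels, and since all GB libraries are treated ones, preparation and treatment cannot be told apart. Markers of skeletal muscle fibres, which define the labelled tissue, summed to 101661 to 112754 CPM in young vehicle, 78168 to 88327 CPM in aged vehicle and 103960 to 114285 CPM in GB libraries. Levels are CPM, the usual depth-scaled count, with TMM factors, which set a typical gene to the same level in every library.

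Together the 42 collagen genes took 0.168, 0.301 and 0.312% of all counts in the young vehicle libraries (replicates 1, 2 and 3, the order kept throughout). They took 0.122, 0.157 and 0.156% in the aged vehicle and 0.0507, 0.0446 and 0.0393% in the GB libraries. The 3 groups did not overlap in this share, with young vehicle highest and GB lowest. Per kilobase of gene length, as the length column of the table gives it, the highest mean levels over the 9 libraries were those of Col4a1 (24.1 CPM per kilobase), Col1a1 (23.2), Col4a2 (19.5), Col6a1 (18.2), Col3a1 (18.1) and Col1a2 (16.8). The order differed by group: Col1a1 led in the young vehicle libraries at 56.2 ± 29.6 CPM per kilobase (mean ± SD, n = 3), and Col4a1 led in the aged vehicle libraries at 31.5 ± 0.955. In the GB libraries Col6a1 at 10.5 ± 0.950 and Col4a1 at 9.96 ± 1.06 differed by less than their spread.

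The 3 classes had different patterns over the groups. The summed level of the fibrillar chains was 678, 1673 and 1780.3 CPM in young vehicle, 348, 499.9 and 480.0 CPM in aged vehicle and 249, 211 and 181 CPM in GB libraries. The summed level of the type IV chains was 341, 423 and 430.0 CPM in young vehicle, 407, 405 and 435 CPM in aged vehicle and 154, 143 and 116 CPM in GB libraries. The fibrillar sum separated all 3 groups, while the type IV sum overlapped between young and aged vehicle and was lower in every GB library. The other types summed to 422, 592 and 557 CPM in young vehicle, 365, 433 and 428 CPM in aged vehicle and 232, 239.6 and 217 CPM in GB libraries, with aged vehicle replicates 2 and 3 above young vehicle replicate 1. In means, the fibrillar sum was 3.11 times higher in young than in aged vehicle and 2.07 times higher in aged vehicle than in GB libraries, and the type IV sum was 3.01 times higher in aged vehicle than in GB libraries. The size of the GB differences depends on the scaling. As shares of all counts, without TMM factors, these 3 values were 3.06, 3.08 and 4.46. In bulk tissue, fewer cells of a type and less RNA per cell cannot be told apart.

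**Figure D1:**
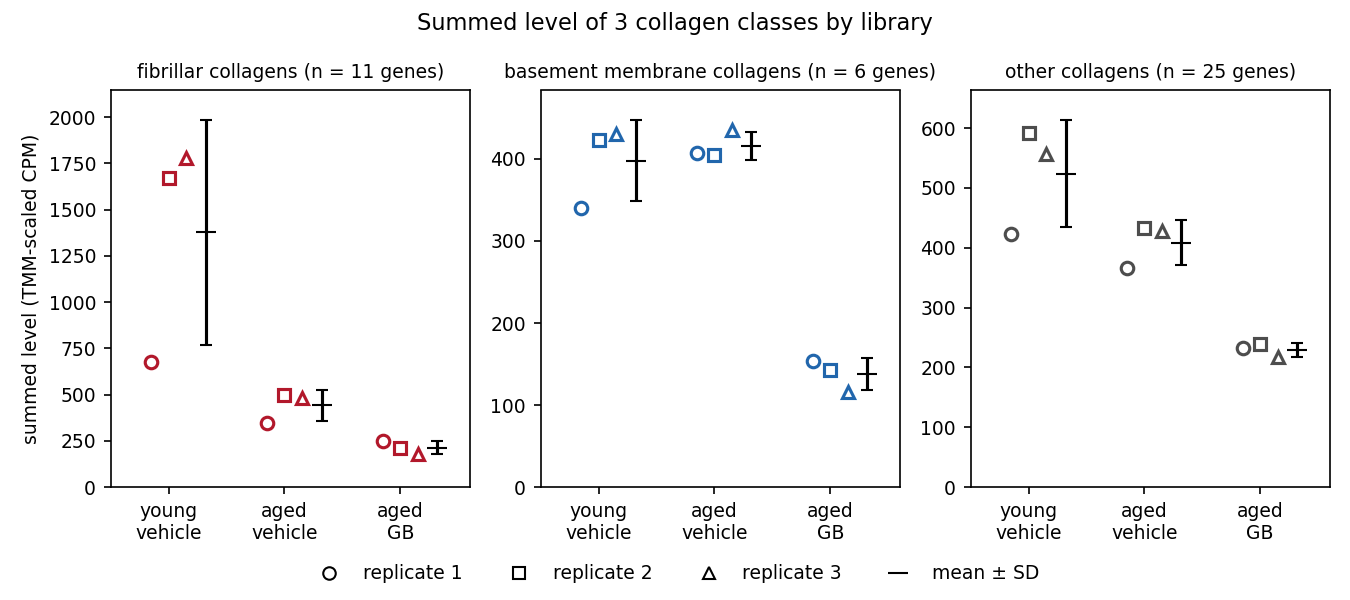
Summed TMM-scaled CPM (y axis, linear from 0) of the fibrillar, basement membrane and other collagen genes in each library of the 3 groups (x axis), with open symbols for replicates 1, 2 and 3 and black bars for mean ± SD over 3 libraries. The fibrillar sum is highest in young vehicle replicates 2 and 3 and lowest with GB, and the basement membrane sum overlaps between both vehicle groups and is lower with GB.

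Young vehicle replicate 1 stood below replicates 2 and 3 in Col1a1, Col1a2, Col3a1, Col5a1, Col5a2 and Col5a3. Tendon, skin and fibroblast markers were also lower in it than in replicates 2 and 3, and so were adipocyte markers (43.4, 63.4 and 71.7 CPM). Not all lists followed: macrophage markers summed to 57.5, 56.6 and 57.7 CPM in young vehicle replicates 1, 2 and 3. Schwann cell markers summed to 154, 295 and 158 CPM there. The 7 tendon markers summed to 166, 265 and 267 CPM in young vehicle replicates 1, 2 and 3, against 127 to 189.7 CPM in aged vehicle and 53.4 to 90.2 CPM in GB libraries. The 5 skin markers summed to 3.48, 81.4 and 63.2 CPM in the same libraries, against 0.826 to 2.02 CPM in aged vehicle and 1.97 to 4.09 CPM in GB libraries. Krt5, Krt14 and Krt1 were at 0 in all aged vehicle libraries, and Krt5 and Krt1 in all GB libraries. The 6 markers of fibroblasts and fibro-adipogenic progenitors summed to 1269, 1903 and 1697 CPM in young vehicle, 1274 to 1379 CPM in aged vehicle and 1201 to 1388 CPM in GB libraries. The part of these markers in the collagen results was not tested. The age comparison is given with and without young vehicle replicate 1. Leaving out that library, the lowest young one in the fibrillar genes named above, widens their fall by construction. It also keeps the young libraries with the highest skin and tendon sums. The smaller p-values without replicate 1 are thus no separate support for a fall.

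Aged against young vehicle muscle asks how the collagen genes differ with age. With age 7 of 42 collagen genes fell and 1 rose in edgeR's quasi-likelihood test (adjusted p under 0.05 over the 17534 genes tested), where 4.28% of all genes tested were called lower and 4.32% were called higher. The falls were in the fibrillar genes Col1a1, Col1a2, Col2a1, Col5a1 and Col11a2 and in Col22a1 and Col26a1, and the rise was in Col24a1. The median log2 fold change was -0.51 over the 42 genes and -0.00216 over all genes tested, and within the classes it was -1.37 for fibrillar, 0.08 for type IV and -0.37 for other types. In 15 of the 42 genes every aged library lay below every young library, and in 3 every aged library lay above, where 16.9% and 17.5% of all genes tested did so. Without young vehicle replicate 1 the test called 13 of the 42 genes lower, among them 8 of the 11 fibrillar genes, and 0 higher, where 4.1% of all genes tested were lower and 3.88% higher, and the log2 fold change of Col24a1 had an adjusted p of 0.0707. Without young replicate 2 or 3 it called 3 or 2 lower, where 2.42% or 2.04% of all genes were. Without aged replicate 1, 2 or 3 it called 3, 4 or 3 lower, where 2.85%, 2.21% or 2.02% of all genes were.

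**Figure D2:**
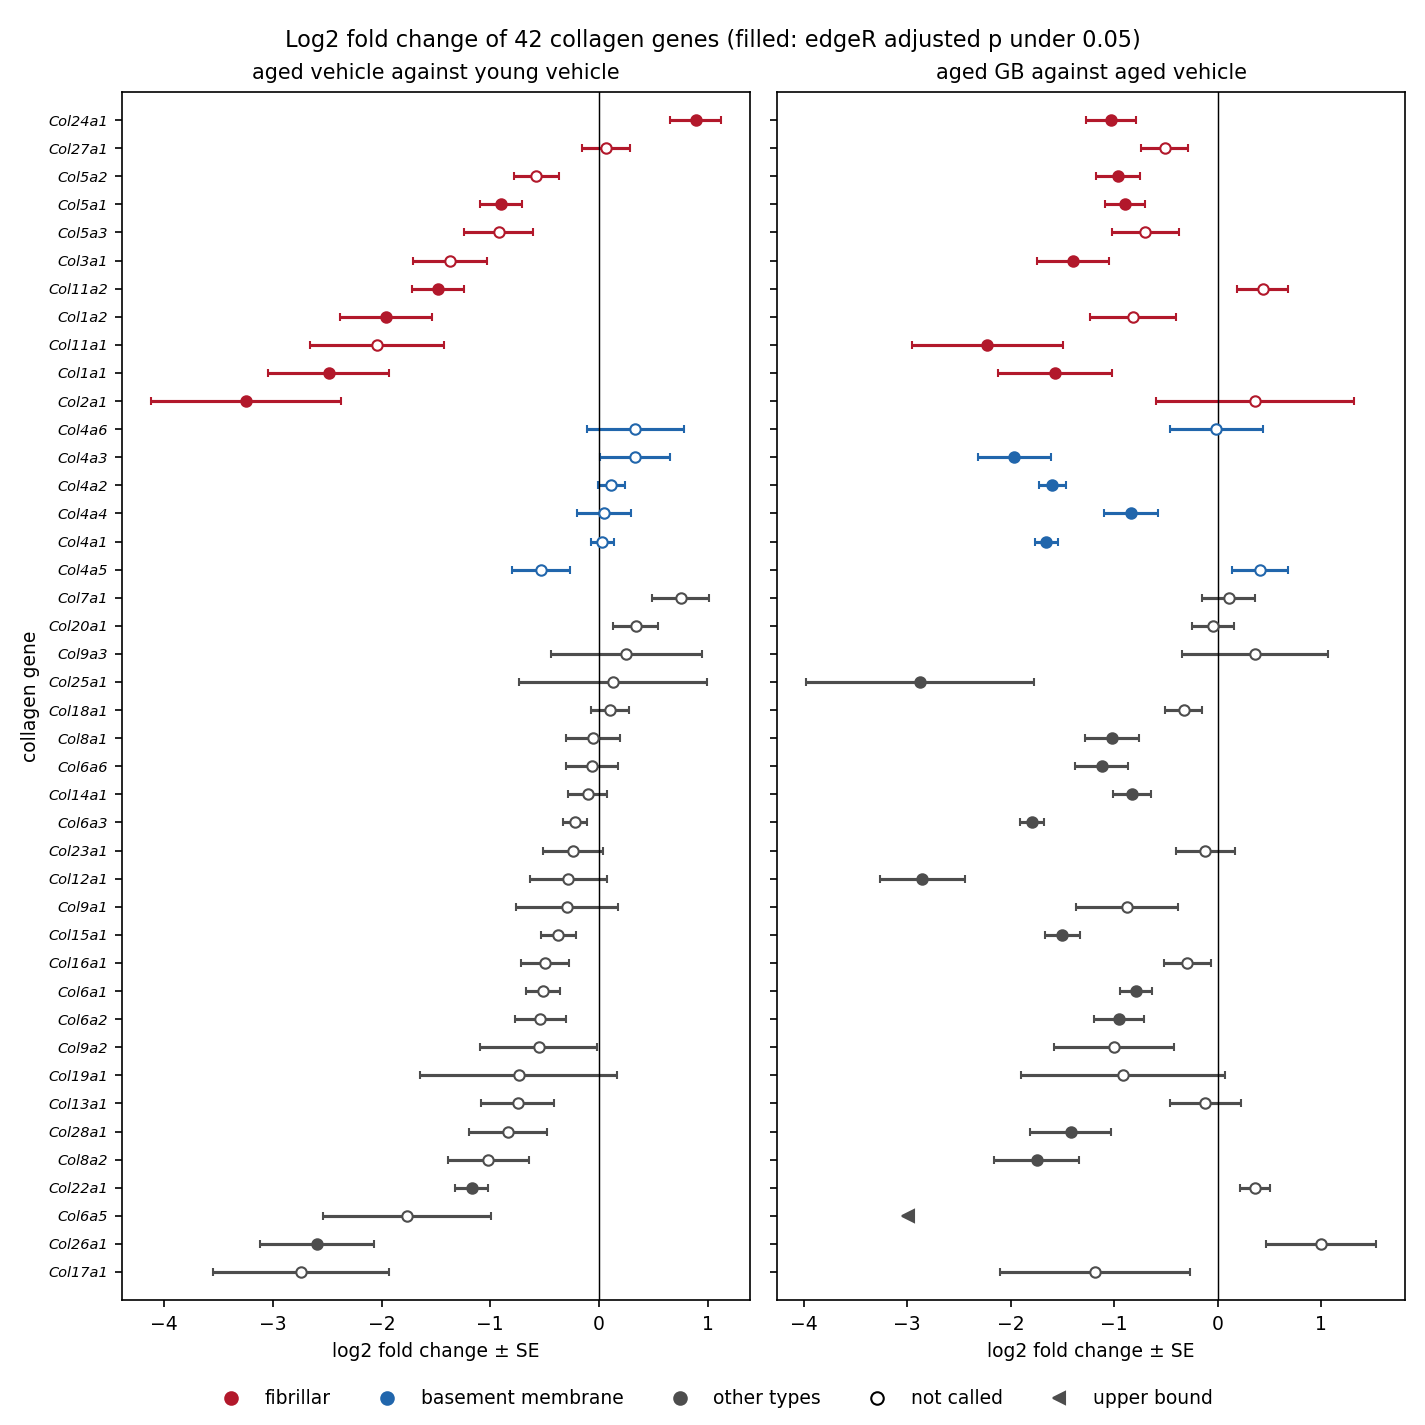
Log2 fold change ± SE (x axis) of each of the 42 collagen genes (y axis, grouped by class and ordered by the age comparison) for aged against young vehicle on the left and GB against aged vehicle on the right. Filled symbols have an edgeR adjusted p under 0.05, open ones do not, and the triangle for Col6a5 is an upper bound because its count was 0 in all GB libraries; of the fibrillar genes 5 fell and 1 rose with age, and with GB 6 fell.

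Type I collagen is the main component of tendon and of the fibrils in muscle sheaths, and each molecule combines the chains of Col1a1 and Col1a2. Col1a1 was at 146, 456 and 504 CPM in the young vehicle, at 43.7, 82.0 and 72.0 CPM in the aged vehicle and at 33.4, 16.9 and 16.1 CPM in the GB libraries. All aged libraries lay below all young libraries, and young replicate 1 lay nearer to the aged libraries than replicates 2 and 3 did. Its log2 fold change with age was -2.49 ± 0.56 (SE, adjusted p = 0.0423, edgeR), a level 5.60 times lower. Col1a2 was at 189.5, 549.7 and 599 CPM in the young vehicle, at 93.9, 129 and 123 CPM in the aged vehicle and at 80.5, 61.2 and 53.9 CPM in the GB libraries, the same order of groups, with a log2 fold change of -1.96 ± 0.42 (SE, adjusted p = 0.0336, edgeR). Without young replicate 1 these were -2.86 (adjusted p = 0.00380) and -2.32 (adjusted p = 6.74e-06). Neither call was stable to the loss of a library: Col1a1 was no longer called without any one of young replicates 2 and 3, aged vehicle replicates 1, 2 and 3 and GB replicates 2 and 3 (adjusted p up to 0.138), and Col1a2 without any one library other than young replicate 1 (up to 0.121).

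Col3a1, whose chain forms a type III molecule on its own and co-assembles with type I in thin, compliant fibrils, was at 196, 417 and 431 CPM in the young vehicle, at 102, 149.8 and 152 CPM in the aged vehicle and at 68.2, 45.1 and 39.9 CPM in the GB libraries. The groups did not overlap, but the log2 fold change with age, -1.37 ± 0.34 (SE, adjusted p = 0.0501, edgeR), stood just outside the threshold. It was -1.66 (adjusted p = 0.00184) without young replicate 1, and the DESeq2 and limma-voom tests gave adjusted p = 0.00215 and 0.0110.

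Type V chains start fibrils and limit their width. Col5a1 was at 44.8, 69.6 and 68.4 CPM in young vehicle and 29.8, 36.5 and 31.7 CPM in aged vehicle libraries and fell, with a log2 fold change of -0.90 ± 0.19 (SE, adjusted p = 0.0140, edgeR); it was no longer called without young replicate 2 or 3 or without aged replicate 1 or 3 (adjusted p 0.0555 to 0.0664). Col5a2 and Col5a3 were not called, at -0.58 (SE 0.21) and -0.92 (SE 0.32), and their aged libraries overlapped the young ones through young replicate 1. Without that library both were called, at -0.77 (adjusted p = 0.0153) and -1.20 (adjusted p = 0.00579).

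The cartilage-associated fibrillar chains were low in this muscle. Col11a2, a type XI chain, was at 11.3, 20.9 and 19.9 CPM in young vehicle, 7.28, 5.79 and 5.58 CPM in aged vehicle and 7.18, 7.20 and 10.8 CPM in GB libraries. Its fall with age, -1.48 ± 0.24 (SE, adjusted p = 0.00272, edgeR), held in all 19 alternative settings and left-out libraries. Col11a1 was at 4.47, 6.69 and 6.76 CPM in young vehicle and 1.14, 1.47 and 1.74 CPM in aged vehicle libraries, a wide separation whose test missed the threshold (-2.04 ± 0.62 SE, adjusted p = 0.0690, edgeR). Col2a1, the type II chain of cartilage, had 33, 60 and 87 counts in young and 10, 2 and 5 counts in aged vehicle libraries. The call for its difference on the log2 scale, -3.25 (SE 0.88, edgeR adjusted p = 0.0392), was lost without young replicate 2 or 3 or without any aged replicate (adjusted p 0.0663 to 0.166). The 5 cartilage and bone markers summed to 2.47 to 2.82 CPM in young vehicle and 1.03 to 2.46 CPM in aged vehicle libraries, with Bglap at 0 in young and Ibsp at 0 in aged vehicle libraries, and their part in these values was not tested.

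Col24a1 was the only fibrillar gene called higher with age. This minor fibrillar chain was at 7.91, 8.43 and 7.91 CPM in the young vehicle, at 17.5, 12.5 and 15 CPM in the aged vehicle and at 4.23, 9.15 and 8.60 CPM in the GB libraries. Every aged vehicle library lay above every young and every GB library. The rise with age was 0.89 ± 0.24 (SE, adjusted p = 0.0364, edgeR); the adjusted p was 0.0511 to 0.127 when any one of the 6 vehicle libraries was left out. Col27a1, a fibrillar chain of the same short-helix kind, was not called (0.07, SE 0.22).

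**Figure D3:**
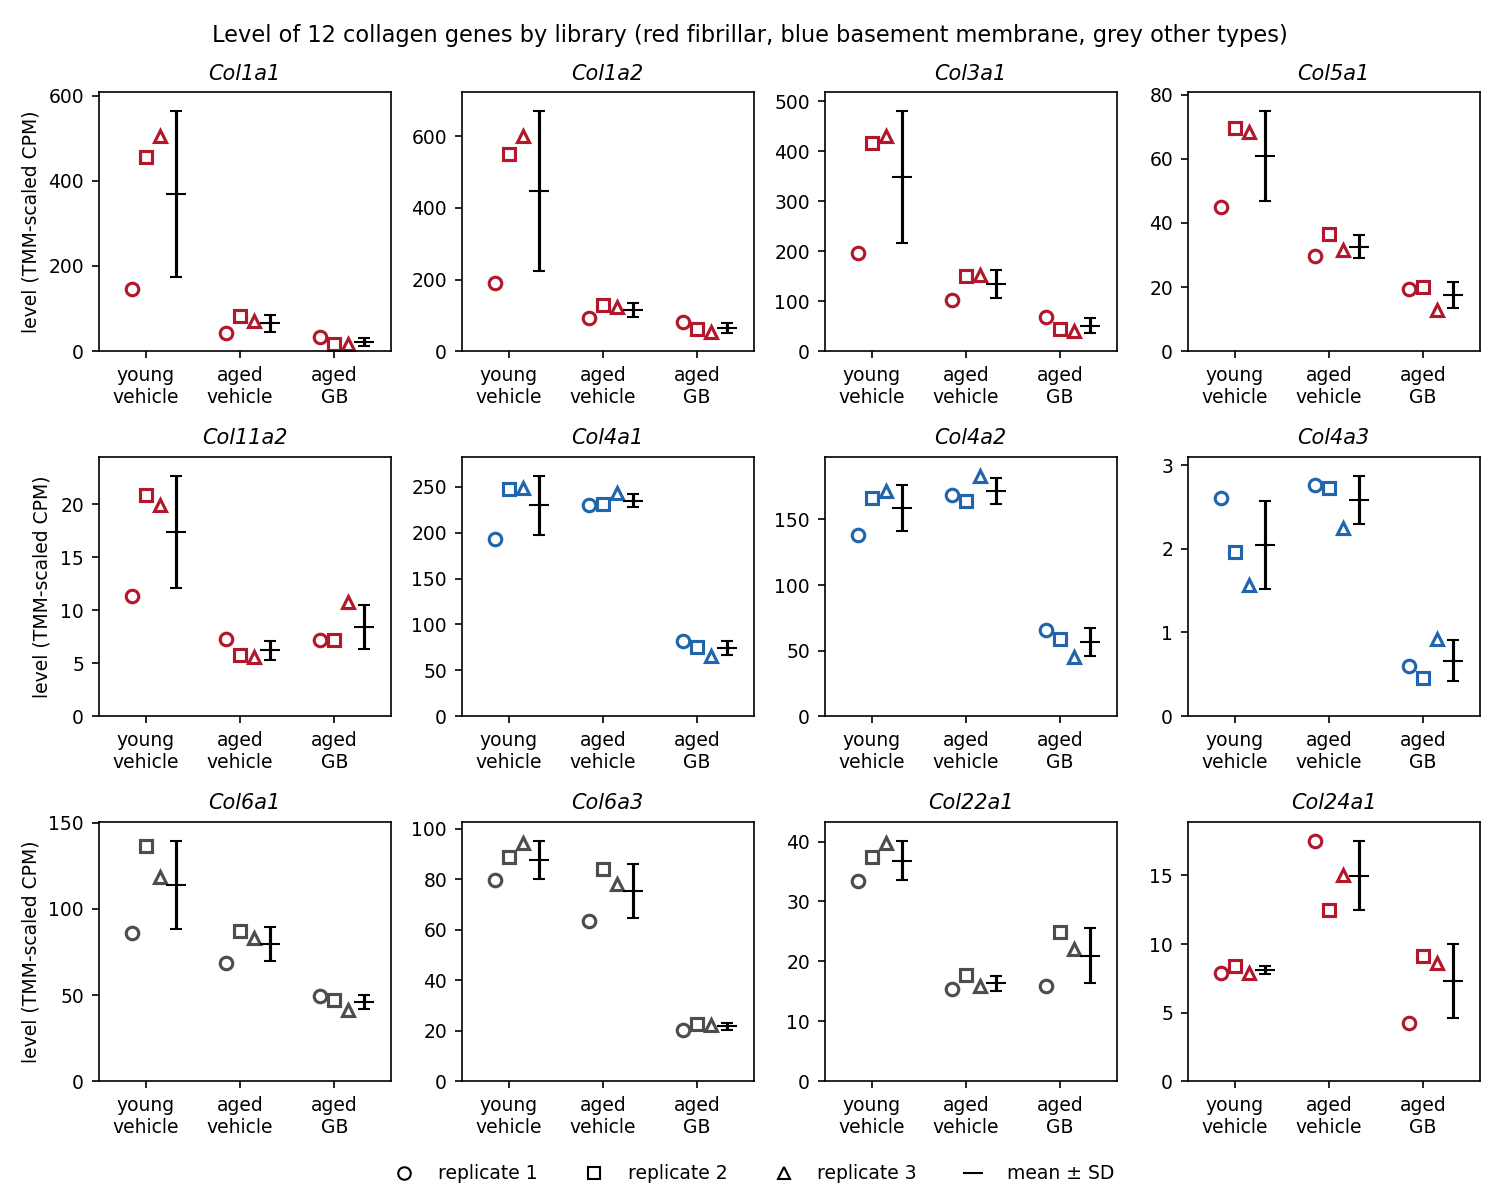
TMM-scaled CPM (y axis, linear from 0) of 12 collagen genes in each library of the 3 groups (x axis), with open symbols for replicates 1, 2 and 3 and black bars for mean ± SD over 3 libraries. Col1a1, Col1a2, Col3a1 and Col5a1 step down from young to aged vehicle to GB, Col4a1 and Col4a2 overlap between both vehicle groups and are lower with GB, and Col24a1 is highest in aged vehicle.

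The type IV chains of the basement membrane showed no call with age, where 4.28% of all genes tested were called lower and 4.32% higher. A count of 0 among 6 genes is near those shares. Of 6 genes 0 were called in either direction by edgeR, 0 had an unadjusted p under 0.05, and DESeq2 and limma-voom called 0. Col4a1 and Col4a2, whose chains form the network found in every basement membrane, had log2 fold changes of 0.03 (SE 0.11) and 0.12 (SE 0.13). Col4a1 was at 193, 247 and 249 CPM in young vehicle and 230.2, 231 and 243 CPM in aged vehicle libraries. Col4a2 was at 138, 166 and 171 CPM in young vehicle and 169, 164 and 183 CPM in aged vehicle libraries. In both genes young replicate 1 was the lowest of the 6. Young replicates 2 and 3 lay above all aged libraries in Col4a1 and among them in Col4a2. The restricted chains were at lower levels: Col4a5 at 3.65, 4.02 and 4.98 CPM in young vehicle and 2.53, 3.17 and 3.04 CPM in aged vehicle libraries, with no overlap but a log2 fold change of -0.53 ± 0.27 (SE, adjusted p = 0.267, edgeR), and Col4a3, Col4a4 and Col4a6 at 0.33, 0.05 and 0.34.

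Among the other types the clearest age difference was in Col22a1, a fibril-associated collagen of the myotendinous junction, where muscle fibres end on tendon. Col22a1 was at 33.4, 37.4 and 39.7 CPM in the young vehicle, at 15.4, 17.8 and 15.9 CPM in the aged vehicle and at 16, 24.9 and 22 CPM in the GB libraries. It fell with age by 1.17 on the log2 scale (SE 0.15, edgeR adjusted p = 0.000559), and the call held in all 19 alternatives. Col26a1 had 58, 66 and 99 counts in young and 8, 12 and 14 counts in aged vehicle libraries, a log2 fold change of -2.60 ± 0.52 (SE, adjusted p = 0.00880, edgeR) that of the 18 alternatives with a value was lost without young replicate 3 alone (adjusted p = 0.0649). Col17a1, a transmembrane collagen of skin hemidesmosomes, had 18, 309 and 278 counts in the young libraries and 36, 30 and 20 in the aged vehicle libraries. Its high counts were in the same 2 young libraries as the skin markers above, whose part in the result was not tested. Col17a1 was not called with all libraries (-2.74 ± 0.81 SE, adjusted p = 0.0634, edgeR) and was called without young replicate 1, at -3.29 (adjusted p = 0.000318).

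Type VI collagen is made from the chains of Col6a1, Col6a2 and a long chain such as that of Col6a3, and mutations in these genes cause human muscle disease. edgeR called no type VI gene with age, which is near the shares of 4.28% lower and 4.32% higher over all genes tested. Col6a1, Col6a2 and Col6a5 had an unadjusted p under 0.05. DESeq2 called Col6a1 alone and limma-voom called none of them. Col6a1, Col6a2 and Col6a3 had log2 fold changes of -0.51 ± 0.15 (SE, adjusted p = 0.0597, edgeR), -0.54 ± 0.24 (SE, adjusted p = 0.216, edgeR) and -0.22 ± 0.11 (SE, adjusted p = 0.274, edgeR). Without young replicate 1 Col6a1 and Col6a2 were called, at -0.68 (adjusted p = 0.00415) and -0.73 (adjusted p = 0.0445). Col7a1, the anchoring fibril chain, was at 15.4, 21.6 and 20.7 CPM in young vehicle and 30.8, 34.5 and 31.7 CPM in aged vehicle libraries, with every aged library higher and a log2 fold change of 0.75 ± 0.26 (SE, adjusted p = 0.110, edgeR). The multiplexin collagens Col15a1 and Col18a1, which bridge basement membranes to the matrix, had -0.37 (SE 0.16) and 0.10 (SE 0.18), neither called.

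GB against aged vehicle muscle asks how the same genes differ with treatment. edgeR called 22 of the 42 collagen genes lower and 0 higher, where 28.8% of all genes tested were called lower and 24.4% higher. For the count of 0, 1 gene (Col22a1) had an unadjusted p under 0.05, DESeq2 called 1 and limma-voom called 0. Of the 6 type IV genes 4 fell, of the 11 fibrillar genes 6 fell and of the 25 other genes 12 fell. The median log2 fold change was -0.91 over the 42 genes and -0.05 over all genes tested, and by class it was -1.22 for type IV, -0.90 for fibrillar and -0.91 for other types. All GB libraries lay below all aged vehicle libraries in 26 of the 42 genes and above in 1, where 32.5% and 27.3% of all genes tested did so. Both comparisons use the same aged vehicle libraries, so their fold changes are not independent of each other.

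Both main basement membrane chains fell. Col4a1 was at 81.5, 75.8 and 65.8 CPM in the GB libraries, below every vehicle library given above. Its log2 fold change was -1.66 ± 0.11 (SE, adjusted p = 9.91e-08, edgeR), a level 3.16 times lower. Col4a2 was at 66.0, 59.2 and 45.2 CPM in the GB libraries and fell by 1.60 on the log2 scale (SE 0.13, edgeR adjusted p = 6.53e-07). In both genes the GB libraries lay below all 6 vehicle libraries.

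The restricted type IV chains, which replace the main network in sites such as the kidney filter, did not move as one. Col4a3 was at 2.61, 1.96 and 1.57 CPM in the young vehicle, at 2.76, 2.73 and 2.25 CPM in the aged vehicle and at 0.604, 0.450 and 0.927 CPM in the GB libraries. It was lower in every GB library than in any vehicle library, with a log2 fold change of -1.97 ± 0.35 (SE, adjusted p = 0.000457, edgeR). Col4a4 fell by 0.84 on the log2 scale (SE 0.26, edgeR adjusted p = 0.0167), a call lost without aged vehicle replicate 3 (adjusted p = 0.0636). Col4a5 was at 4.04, 5.10 and 2.43 CPM with GB, overlapping both vehicle groups, at 0.40 ± 0.27 (SE, adjusted p = 0.231, edgeR). Col4a6, its neighbour on the X chromosome, was at -0.01 (SE 0.45).

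All 5 type VI genes fell with GB. Their summed level was 249, 360.2 and 337 CPM in young vehicle, 201, 256 and 246 CPM in aged vehicle and 123, 106 and 95.5 CPM in GB libraries, with every GB library below every vehicle library. Col6a1 was at 86.1, 137 and 118 CPM in the young vehicle, at 68.5, 87.3 and 83.0 CPM in the aged vehicle and at 49.5, 46.9 and 41.4 CPM in the GB libraries. Col6a2 was at 76.9, 130.0 and 117 CPM in the young vehicle, at 63.9, 80.3 and 79.2 CPM in the aged vehicle and at 51.6, 34.6 and 29.2 CPM in the GB libraries. The log2 fold changes were -0.79 ± 0.15 (SE, adjusted p = 0.000982, edgeR) for Col6a1 and -0.95 ± 0.24 (SE, adjusted p = 0.00780, edgeR) for Col6a2. Col6a3 was at 63.4, 84.2 and 78.2 CPM in aged vehicle and 20.1, 22.7 and 22.3 CPM with GB, which is -1.79 ± 0.12 (SE, adjusted p = 7.67e-08, edgeR) on the log2 scale. Col6a6 had -1.12 ± 0.25 (SE, adjusted p = 0.00245, edgeR). Col6a5 had 10, 64 and 90 counts in young vehicle, 15, 14 and 16 in aged vehicle and 0 in all GB libraries. Against a floor of 3 counts over the GB group, its level was at least 7.96-fold lower than in aged vehicle and at least 26.9-fold lower than in young vehicle libraries. The median over the type VI genes was -1.12 with Col6a5 at its fitted value or at that bound. The Col6a5 call was lost with limma-voom (adjusted p = 0.0660).

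Among the remaining types, Col12a1, which coats fibrils and is abundant in tendon and muscle sheaths, was at 9.96, 15.5 and 18.5 CPM in the young vehicle, at 10.9, 12.1 and 13.2 CPM in the aged vehicle and at 2.83, 1.53 and 0.640 CPM in the GB libraries. Its GB libraries were far below all vehicle libraries, with a log2 fold change of -2.85 ± 0.41 (SE, adjusted p = 0.000180, edgeR), a level 7.23 times lower. Col14a1, a related fibril-associated collagen, fell by 0.83 on the log2 scale (SE 0.18, edgeR adjusted p = 0.00222). Col15a1, a proteoglycan-like collagen that ties basement membranes to neighbouring fibrils, was at 47.3, 63.8 and 59.5 CPM in the young vehicle, at 41.4, 45.2 and 45.1 CPM in the aged vehicle and at 19, 16.1 and 11.5 CPM in the GB libraries, and it fell by 1.5 (SE 0.17, edgeR adjusted p = 9.33e-06). Its relative Col18a1 was not called (-0.33, SE 0.18).

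The short-chain network genes Col8a1 and Col8a2, known from vessel walls, both fell, at -1.02 ± 0.26 (SE, adjusted p = 0.00523, edgeR) and -1.75 ± 0.41 (SE, adjusted p = 0.00324, edgeR), and Col28a1 fell by 1.42 on the log2 scale (edgeR adjusted p = 0.00859). Col25a1 had 12, 21 and 26 counts in aged vehicle and 4, 0 and 0 in GB libraries. Its call (adjusted p = 0.0429) was lost without any one library other than GB replicate 1 (adjusted p 0.0513 to 0.123). Col22a1 did not follow these genes: its GB libraries, given above, overlapped the aged vehicle libraries, with a log2 fold change of 0.36 ± 0.15 (SE, adjusted p = 0.0589, edgeR). Col26a1 was the gene with every GB library above every aged vehicle library, and it was not called (1.0 ± 0.53 SE, adjusted p = 0.136, edgeR).

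Of the fibrillar genes, Col3a1, Col5a1, Col5a2, Col11a1, Col24a1 and Col1a1 fell with GB. Col3a1, with its values above, had a log2 fold change of -1.40 ± 0.35 (SE, adjusted p = 0.0101, edgeR). Col5a1 was at 19.4, 20.1 and 13 CPM and Col5a2 at 12.8, 18.1 and 13.6 CPM in GB libraries, at -0.90 ± 0.19 (SE, adjusted p = 0.00229, edgeR) and -0.97 ± 0.21 (SE, adjusted p = 0.00260, edgeR). Col24a1, the gene that rose with age, had -1.03 ± 0.24 (SE, adjusted p = 0.00311, edgeR), and its GB libraries overlapped the young ones (-0.14 ± 0.24 SE, adjusted p = 0.648, edgeR for GB against young vehicle). Col1a1 had -1.57 ± 0.55 (SE, adjusted p = 0.0486, edgeR), a level 2.97 times lower, and Col1a2 was not called at -0.82 ± 0.41 (SE, adjusted p = 0.139, edgeR) although its GB libraries lay below all aged vehicle libraries. The Col1a1 call was lost without any one of young replicates 2 and 3, aged vehicle replicates 1, 2 and 3 and GB replicates 2 and 3 (adjusted p 0.0503 to 0.135). The Col11a1 call (adjusted p = 0.0248) was lost without aged vehicle replicate 2 or 3 or GB replicate 3 (adjusted p 0.0587 to 0.0915).

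Markers of several cell types also differed between the GB and aged vehicle libraries. Of all genes tested, 28.8% were called lower and 24.4% higher in this comparison. Tendon markers, with their sums above, were called lower in 5 of 7 and higher in 1. Endothelial markers, from cells that lay down type IV collagen, summed to 300.5 to 324 CPM in young vehicle, 406 to 443 CPM in aged vehicle and 206 to 265 CPM in GB libraries, with 4 of 5 lower with GB. Smooth muscle and pericyte markers summed to 367 to 383, 627 to 697 and 373 to 407 CPM in the same order, with 4 of 5 lower and 1 higher. Fibroblast and progenitor markers were called higher in 3 of 6 and lower in 1, and their sums overlapped between the GB and aged vehicle groups. Macrophage markers summed to 53.5 to 67.2 CPM in aged vehicle and 27.9 to 34.5 CPM in GB libraries, Schwann cell markers to 77.7 to 82.4 and 112 to 180.4 CPM, and adipocyte markers to 23.3 to 30.9 and 49.4 to 105 CPM. Their part in the collagen results was not tested.

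Gene length moved with the GB comparison, and collagen genes are long, at 3095 to 15228 bases. Among the 10296 tested genes in that range the median log2 fold change with GB was -0.27, with 36.6% called lower and 16.1% higher. Among the 6870 shorter genes it was 0.46, with 14.8% lower and 37.9% higher. With an offset that removes the trend with length in each library, 11 of 42 collagen genes were called lower and 5 higher, where 24.7% of all genes tested were lower and 21.9% higher. The lower count is thus near the share over all genes. The 11 were Col4a1, Col4a2, Col4a3, Col6a1, Col6a3, Col6a5, Col8a2, Col12a1, Col15a1, Col24a1 and Col28a1. Col4a1 was then at -1.24 (SE 0.12, adjusted p = 3.21e-06), Col6a3 at -1.10 (SE 0.12, adjusted p = 1.26e-05) and Col12a1 at -2.03 (SE 0.44, adjusted p = 0.00381). Col3a1, Col5a1, Col5a2, Col6a2, Col6a6, Col8a1, Col14a1, Col1a1, Col4a4, Col11a1 and Col25a1 were no longer called. The 5 called higher were Col4a5 (0.76), Col7a1 (0.71), Col11a2 (0.80), Col22a1 (0.90) and Col26a1 (1.48).

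**Figure D4:**
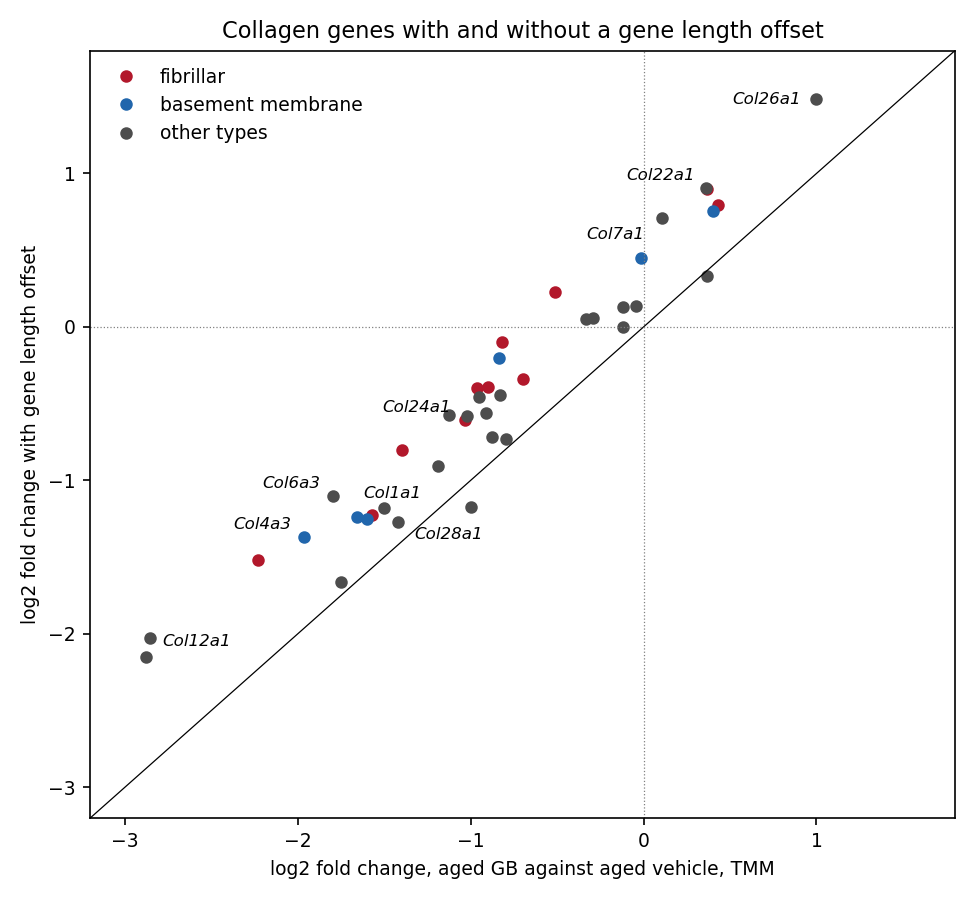
Log2 fold change of GB against aged vehicle with TMM scaling (x axis) and with the gene length offset (y axis) for 41 collagen genes, coloured by class, with the line of equal values and dotted lines at 0. Col6a5, at 0 counts with GB, is left out; the points lie above the line of equal values except Col9a2 and Col9a3, and Col4a3, Col6a3 and Col12a1 stay below 0 on both axes.

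Scaling by library totals instead of TMM moved the median of all genes from -0.05 to -0.62 in this comparison, with 2030 genes higher and 8421 lower in place of 4281 and 5045. Under it 30 of 42 collagen genes were called lower and 0 higher, where 48% and 11.6% of all genes were, with the falls in 9 fibrillar, 4 type IV and 17 other. In every one of the 19 alternatives 10 of the 22 calls held: Col4a1, Col4a2, Col4a3, Col6a1, Col6a3, Col8a2, Col12a1, Col15a1, Col24a1 and Col28a1.

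Set against young vehicle, the GB libraries had 30 of 42 collagen genes lower and 1 higher, where 29% of all genes tested were called lower and 24.7% higher. The falls were in 9 of 11 fibrillar, 4 of 6 type IV and 17 of 25 other genes, and the median log2 fold change was -1.52 against -0.09 over all genes tested. Col1a1 had the values -2.49 for aged against young vehicle, -1.57 for GB against aged vehicle and -4.06 ± 0.60 (SE, adjusted p = 0.00115, edgeR) for GB against young vehicle. Col4a1 had 0.03, -1.66 and -1.63 ± 0.11 (SE, adjusted p = 1.07e-07, edgeR) in the same order. Col22a1 was lower with GB than in young vehicle as well, at -0.81 ± 0.15 (SE, adjusted p = 0.000527, edgeR). The Col22a1 call was lost with the gene length offset (-0.30, edgeR adjusted p = 0.0912). The 1 higher gene was Col7a1, at 19.5, 40.9 and 43.9 CPM with GB and 0.86 ± 0.26 (SE, adjusted p = 0.0184, edgeR), with GB replicate 1 inside the young range. That call was lost without young replicate 1, GB replicate 2 or GB replicate 3. Gene length moved with this comparison too: 36.6% of genes in the length range of the collagen genes and 15.7% of shorter genes were called lower. With the gene length offset 25 of 42 collagen genes were lower and 1 higher, where 25.4% of all genes tested were lower and 23.4% higher. Scaled by library totals, 37 of 42 collagen genes were lower and 0 higher, and of all 17534 genes 2117 were higher and 8530 lower in place of 4323 and 5083. These comparisons share the young or aged vehicle libraries with those above.

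Chains that assemble in fixed proportions can be compared within a library, where a scale factor cancels. A trend with gene length does not cancel there, and the size of each ratio depends on the length column. The type I molecule holds more of the Col1a1 chain than of the Col1a2 chain. Per kilobase, the ratio of Col1a1 to Col1a2 was 1.46, 1.57 and 1.59 in young vehicle, 0.882, 1.21 and 1.11 in aged vehicle and 0.786, 0.524 and 0.567 in GB libraries. The 3 groups did not overlap and the ratio was under 1 in every GB library. Its place against 1 depends on the lengths used, 6563 bases for Col1a1 and 12426 for Col1a2, and does not give chain proportions. In CPM, Col1a1 lay below Col1a2 in every library. With the gene length offset the log2 fold changes of GB against aged vehicle were -1.22 for Col1a1 and -0.10 for Col1a2. The ratio of Col3a1 to Col1a1 was 0.894, 0.610 and 0.572 in young vehicle, 1.55, 1.22 and 1.41 in aged vehicle and 1.36, 1.78 and 1.65 in GB libraries, lowest in the young libraries and overlapping between the others. With 3 libraries against 3 an exact permutation test cannot give a two-sided p under 0.1, so these ratios are given without a test.

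The other partners differed in how steady they were. The ratio of Col4a1 to Col4a2, neighbours on opposite strands, was 1.24, 1.32 and 1.29 in young vehicle, 1.21, 1.25 and 1.18 in aged vehicle and 1.09, 1.14 and 1.29 in GB libraries, overlapping in all 3 groups. Col6a1 to Col6a2 was 2.13, 2.0 and 1.92 in young vehicle, 2.04, 2.07 and 1.99 in aged vehicle and 1.82, 2.58 and 2.69 in GB libraries, with GB replicates on both sides of the vehicle values. Col6a3 to Col6a1 was 0.338, 0.238 and 0.292 in young vehicle, 0.339, 0.353 and 0.345 in aged vehicle and 0.148, 0.177 and 0.197 in GB libraries, lowest in all 3 GB libraries. Col6a3 is the longer gene of that pair, and the offset for length took its log2 fold change with GB from -1.79 to -1.10 and that of Col6a1 from -0.79 to -0.73. Col5a1 to Col5a2 was 1.62, 1.57 and 1.56 in young vehicle, 1.5, 1.27 and 1.10 in aged vehicle and 1.70, 1.25 and 1.07 in GB libraries. The summed type IV level over the summed fibrillar level, per kilobase, was 0.633, 0.316 and 0.302 in young vehicle, 1.51, 1.02 and 1.16 in aged vehicle and 0.807, 0.870 and 0.815 in GB libraries, highest in all aged vehicle libraries.

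**Figure D5:**
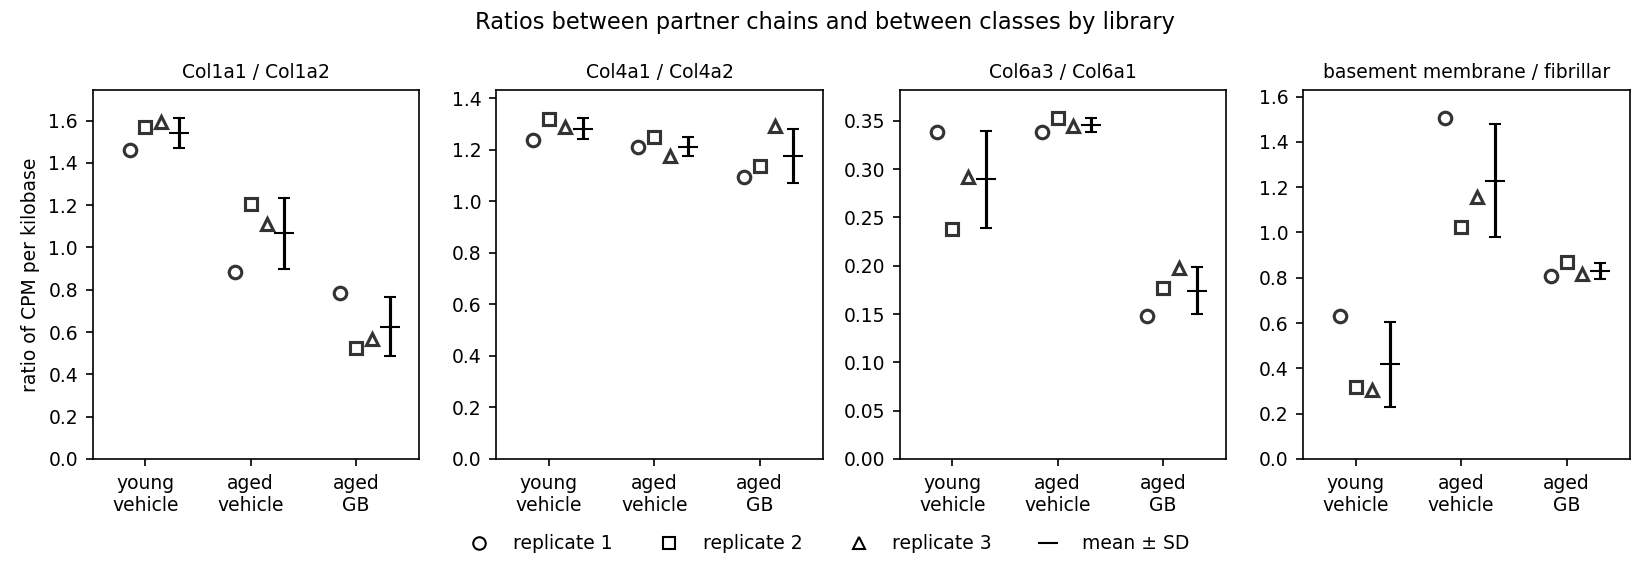
Ratio of CPM per kilobase (y axis, linear from 0) of Col1a1 to Col1a2, Col4a1 to Col4a2, Col6a3 to Col6a1 and basement membrane to fibrillar collagens in each library of the 3 groups (x axis), with open symbols for replicates 1, 2 and 3 and black bars for mean ± SD over 3 libraries. Col1a1 to Col1a2 steps down over the groups without overlap, Col4a1 to Col4a2 overlaps in all groups, and Col6a3 to Col6a1 is lowest with GB.

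Collagen chains depend on enzymes and carriers before secretion. Of 23 genes for their hydroxylation, folding and transport, 1 fell with age and 0 rose (1 had an unadjusted p under 0.05, and DESeq2 and limma-voom called 0). The count that fell by edgeR is near the 4.28% of all genes tested called lower with age, and it was 0 with library totals. At an unadjusted p under 0.05 it was 6. DESeq2 and limma-voom each called 4 lower, where 6.54% and 5.8% of all genes were. Of all genes tested 4.32% were called higher. The fall called by edgeR was in Plod3, a lysyl hydroxylase, from 20.1 ± 1.44 to 15.3 ± 1.46 CPM (mean ± SD, n = 3). Its log2 fold change was -0.39 (edgeR adjusted p = 0.0451). Serpinh1, the collagen chaperone, had -0.50 ± 0.15 (SE, adjusted p = 0.0624, edgeR). With GB 10 of the 23 fell and 4 rose (P4ha2, P4hb, P3h1 and Plod3), beside 28.8% and 24.4% of all genes tested. Colgalt1, which adds galactose to hydroxylysine, fell from 49.3 ± 0.875 to 13.6 ± 2.13 CPM (-1.86 ± 0.11 SE, adjusted p = 4.40e-08, edgeR). Mia3, the receptor that loads procollagen into transport carriers, had -1.0 ± 0.09 (SE, adjusted p = 1.54e-06, edgeR), and Sec23a, a coat protein of those carriers, -0.93 ± 0.09 (SE, adjusted p = 1.87e-06, edgeR). The median log2 fold change was -0.18 with age and -0.19 with GB.

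Of 12 genes for processing and cross-linking, 0 were called with age: 0 higher by any of the 3 tests, and 0 lower by edgeR, where 5 had an unadjusted p under 0.05, DESeq2 called 3 and limma-voom 2. The edgeR counts of 0 are near the 4.28% of all genes tested called lower and the 4.32% called higher with age. Loxl2, a cross-linking oxidase, had -0.67 ± 0.20 (SE, adjusted p = 0.0601, edgeR) with age. With GB 5 fell (Tll1, Adamts3, Lox, Loxl2 and Loxl4) and Bmp1, a procollagen C-proteinase, rose. Over all genes tested 28.8% were called lower and 24.4% higher. Loxl2 fell with GB by 1.66 on the log2 scale (SE 0.22, edgeR adjusted p = 3.49e-05). The median log2 fold change was -0.49 with age and -0.64 with GB.

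Of 9 collagen receptor genes tested, Itga1, an integrin chain that binds type IV collagen, rose with age (0.80 ± 0.10 SE, adjusted p = 0.000643, edgeR), and Mrc2, which takes up collagen for degradation, and Itga11, a fibrillar collagen integrin, fell (-0.71 and -0.63). The shares over all genes tested were 4.32% higher and 4.28% lower. With GB 3 of 9 fell, near the 28.8% of all genes called lower, and 0 rose (1 had an unadjusted p under 0.05, DESeq2 called 1 and limma-voom 0). Itga1 had -1.60 ± 0.11 (SE, adjusted p = 1.0e-07, edgeR), Ddr2, a receptor kinase for fibrillar collagen, -1.97 ± 0.14 (SE, adjusted p = 1.67e-07, edgeR), and Itgb1 -0.86. The median was -0.31 with age and -0.35 with GB.

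Of 9 genes whose products bind fibrils, 4 fell with age (Fmod, Fn1, Sparc and Postn) and Lum rose. Over all genes tested 4.28% were called lower and 4.32% higher. Sparc, a collagen-binding protein, had -1.29 ± 0.26 (SE, adjusted p = 0.0186, edgeR) and fibronectin (Fn1) -0.63 ± 0.14 (SE, adjusted p = 0.0193, edgeR). With GB 5 fell (Dcn, Lum, Fmod, Fn1 and Fbln1) and 0 rose by any of the 3 tests or at an unadjusted p under 0.05. The shares over all genes tested were 28.8% lower and 24.4% higher. Fmod, a small proteoglycan of tendon fibrils, had -1.43 ± 0.31 (SE, adjusted p = 0.0271, edgeR) with age and -2.23 ± 0.32 (SE, adjusted p = 0.000485, edgeR) with GB. The median was -0.21 with age and -0.57 with GB.

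Of 10 partners of type IV collagen in the basement membrane, Lama5 rose with age (0.82 ± 0.12 SE, adjusted p = 0.00104, edgeR) and 0 fell (2 had an unadjusted p under 0.05, and DESeq2 and limma-voom called 0). Over all genes tested 4.32% were called higher and 4.28% lower with age. With GB 9 of 10 fell, all except Agrn (-0.10, SE 0.13), and 0 rose by any of the 3 tests or at an unadjusted p under 0.05. The shares over all genes tested were 28.8% lower and 24.4% higher. Lama2, the laminin chain of the muscle fibre basement membrane, fell from 51.2 ± 3.02 to 12.2 ± 2.83 CPM (-2.07 ± 0.14 SE, adjusted p = 1.19e-07, edgeR). Nid1, which links laminin to type IV collagen, had -1.08 ± 0.08 (SE, adjusted p = 2.90e-07, edgeR) and Lamc1 -1.17 ± 0.10 (SE, adjusted p = 8.18e-07, edgeR). The median was 0.04 with age and -0.84 with GB. With the length offset 5 of these 10 were called lower and 2 higher with GB, and in the 23 biosynthesis genes 12 were lower and 5 higher, where 24.7% of all genes were lower and 21.9% higher.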

How the data were processed

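RNA from gastrocnemius was extracted with TRIzol and chloroform and made into libraries with a KAPA mRNA kit, per the labels' protocols. The authors deposited 1 table of raw counts per gene with gene lengths, and each of its 9 count columns was matched to a sample by name. FastQC, HISAT2, SAMtools and DESeq2, and the builds GRCm39 and mm10, appear in the submitters' processing notes without a role. For the read counter, annotation and strand setting nothing is stated in these sources, so overlapping and antisense genes could not be told apart.

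Counts were tested in R 4.3.3 with edgeR 4.0.16 (quasi-likelihood, robust, 1 mean per group over all 9 libraries). Genes were kept by filterByExpr (minimum count 10, minimum total 15), scaled by TMM and adjusted by Benjamini-Hochberg over 17534 genes at 0.05. CPM is the count divided by the product of library total and TMM factor, on the usual scale. SE is the log2 fold change divided by the square root of F. The scripts were checked on simulated counts. Alternatives were DESeq2 1.42.0 and limma 3.58.1 (voom), other scalings and filters, a gene length offset (lowess span 0.3), the 2 compared groups alone, a replicate block and leaving out each library. Values in every library are given for the 3 genes of each class with the highest CPM per kilobase and the called gene with the largest rise and fall of at least 2 CPM, with partner chains beside them, and Col5a1, Col5a2, Col5a3, Col11a1, Col11a2, Col2a1, Col6a3, Col6a5, Col7a1, Col17a1, Col25a1 and Col26a1 were added after their values were seen. The members and lists were chosen with earlier results of these data known.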

Additional observations from a re-analysis of the deposited data

How the results depend on the processing

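No alternative reversed a direction that was called. With age, the count of collagen genes called higher (1) was 2 with the DESeq2 test, 2 with only the 2 groups compared and 0 to 2 when 1 library was left out. The share of all genes called higher was 4.32% in the main test and 7.15%, 6.93% and 2.06 to 5.64% in these settings. The count called lower (7) was 4 with no filter on low counts, 13 with the DESeq2 test and 2 to 13 when 1 library was left out. The share of all genes called lower was 4.28% in the main test and 2.65%, 6.54% and 2.02 to 5.32% in these settings. Of the 8 age calls, those of Col11a2 and Col22a1 held in every setting. With GB against aged vehicle, the count called higher (0) was 1 with upper-quartile factors, 5 with the gene length offset, 1 with the filter of at least 1 CPM in 3 libraries, 1 with the DESeq2 test, 1 with the replicate block and 0 to 2 when 1 library was left out (2 without GB replicate 1 and 1 without GB replicate 3). The share of all genes called higher was 24.4% in the main test. In these settings it was 27.1%, 21.9%, 30.5%, 25.9%, 23.2% and 19.6 to 23.6%. The count called lower (22, with 28.8% of all genes lower) was 11 with the gene length offset (24.7% of all genes lower), which is near the share over all genes. With GB against young vehicle, the count called higher (1) was 0 with library totals, 0 with no filter and 0 to 1 when 1 library was left out. The share of all genes called higher was 24.7% in the main test and 12.1%, 12.2% and 19.7 to 23.6% in these settings. In this comparison 22 of the 31 calls held in every setting. The cause of these changes was not tested. With the replicate block, 1 gene was higher and 6 lower with age, and 1 higher and 22 lower with GB against aged vehicle. Over all genes 3.85% were then higher and 3.63% lower with age, and 23.2% higher and 27.9% lower with GB. The gene higher with age was then Col7a1, and Col24a1 was no longer called. Of the 6 lower with age 4 were among the main calls, and of the 22 lower with GB 21 were. The replicate numbers share only a number: of 9 same-numbered pairs 0 had a correlation of deviations over 0.1 (-0.03 to 0.06). Low counts limit Col2a1, Col6a5, Col9a3 and Col25a1, and 3 libraries per group limit every test.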
